A study of Mus musculus with 115 samples.

Results

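The serpins are a family of proteins that mostly inhibit serine proteases. All probes whose symbol begins with Serpin, followed by one of the clade letters a, b, e, f, g, h or i and a number, were taken from the liver and the inguinal adipose tables. The coagulation serpins Serpinc1, Serpind1 and Serpinf2 were left out. These were 60 of the 25697 probes of each table and covered 50 gene symbols, 19 of clade A, 24 of clade B and 7 of the other clades. A probe was tested where it was detected (detection p under 0.01) in at least 5 liver arrays or 3 adipose arrays, the size of the smallest group. This left 24 serpin probes of 21 genes among 11317 in liver and 23 serpin probes of 21 genes among 14636 in adipose.

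RNA was measured on Illumina BeadChips, 1 colour and 1 RNA sample per array, in mice of a C57BL/6J background bred so that gonad type and sex chromosomes are inherited apart. Sry, the testis-determining gene, was deleted from the Y chromosome of the line, so XY- and XY-Sry mice lacked it there. XXSry and XY-Sry mice carried Sry as a transgene and had testes, while XX and XY- mice lacked it and had ovaries. All animals lost their gonads at 75 days of age and carried a capsule for the next 3 weeks, which was blank, held 5 mM testosterone or held 50 µg estradiol. The 12 groups of genotype and capsule held 5 arrays each in liver (60 in all) and 3 to 5 in inguinal adipose tissue (55 in all). The blank arrays are gonadectomized mice, not intact ones, and the gonad contrast (groups with Sry minus groups without) compares animals that all lacked their gonads during treatment.

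A serpin presents an exposed loop as bait, and the protease that cuts it is trapped in a covalent complex. Many plasma serpins are made by hepatocytes: Serpina1 genes encode alpha-1-antitrypsin, the main inhibitor of neutrophil elastase, and Serpina3 genes encode relatives of antichymotrypsin. Mice hold several copies of both, next to each other on chromosome 12. Some members have kept the fold but carry cargo, as Serpina6 (corticosteroid-binding globulin) and Serpina7 (thyroxine-binding globulin) do. Clade B serpins act mostly inside cells, among them the leukocyte elastase inhibitor Serpinb1a.

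Median signals ran from 124 to 159 per liver array and from 130 to 230 per adipose array, with 31.8 to 41.0% and 40.3 to 49.0% of probes detected. The hepatocyte list (10 of 10 genes, Alb among them) was detected in every liver array, and 6 of 7 adipocyte genes were detected in every adipose array. The adipose arrays also held muscle transcripts. Their skeletal muscle list ran from 6.21 to 14.44 (mean log2 level, median 13.00) and their adipocyte list from 11.20 to 12.59 (median 12.03). The muscle list averaged 12.36 in blank, 12.43 in testosterone and 11.08 in estradiol arrays, with 0 of 6 probes called for testosterone, estradiol or Sry. Liver array XY-Sry T replicate 5 went against its genotype label, with Xist at 6.25 log2 units (30 arrays labelled XX or XXSry, 6.12 to 7.37; the other 29 labelled XY- or XY-Sry, 4.51 to 5.23). Liver array XY- E replicate 5 was at odds with its capsule label: over the probes called for testosterone, its mean of the higher probes minus that of the lower ones was 0.75, against 0.43 to 1.24 in testosterone arrays and -0.40 to 0.30 in the other estradiol arrays. The label fields of adipose array XX E replicate 1 disagree on its capsule, and it was kept as estradiol. Without both liver arrays 59 of 60 values of named serpins kept their direction and call (the exception was Serpina4-ps1 with estradiol), and with the adipose array taken as testosterone 35 of 35 did. The labels do not say that the arrays of a group came from separate animals, so p-values measure the spread between arrays, which may be technical in part. Arrays lay on 8 slides per tissue and every slide lacked at least 1 capsule, so hormone and slide are partly confounded and within-slide differences are given beside the pooled differences of the serpins described at length.

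The serpins of the 2 tissues were different in part. In liver 23 of 50 symbols were never detected and 15 were detected in all 60 arrays, 12 of them clade A. In adipose 25 were never detected and 6 were detected in all 55 arrays, namely Serpina3c, Serpina3n, Serpinb6a, Serpinf1, Serping1 and Serpinh1. Serpina3k was detected in 60 of 60 liver arrays and 0 of 55 adipose arrays, and Serpina3c in 0 of 60 liver arrays and 55 of 55 adipose arrays. Serpinh1, a collagen chaperone of the endoplasmic reticulum, was detected in 1 of 60 liver arrays and 55 of 55 adipose arrays. Clade B was mostly not detected, with 19 of 24 symbols never seen in liver and 19 of 24 in adipose. Serpini1 (neuroserpin) and Serpini2 were not detected in any array of either tissue. The tissues were normalised separately, so their levels are set side by side and not tested against each other.

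**Figure D1:**
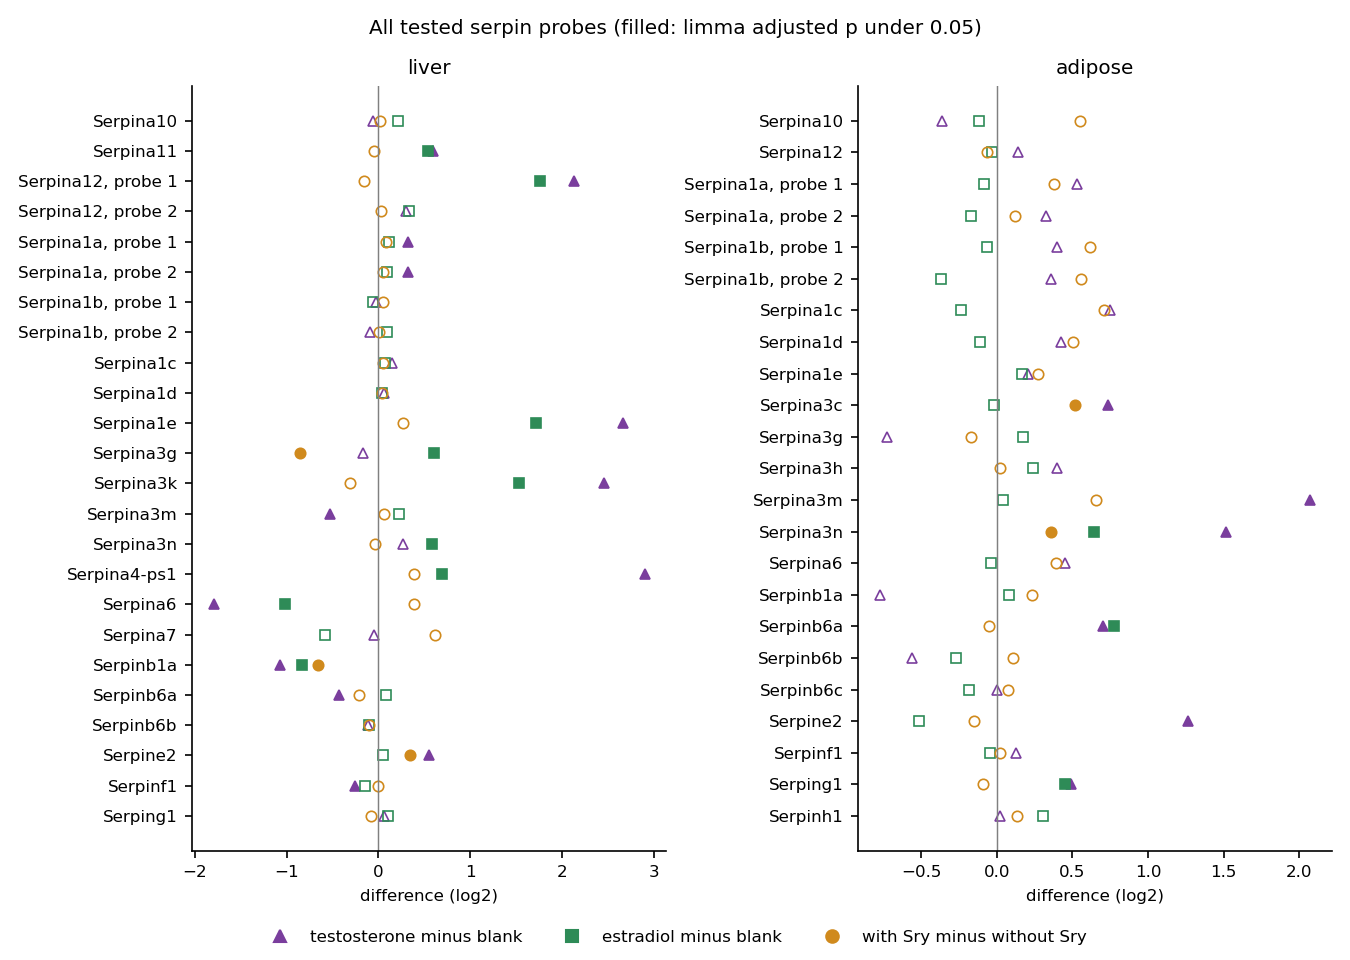
Differences of every tested serpin probe on the log2 scale (x axis) for testosterone minus blank, estradiol minus blank and Sry minus no Sry in liver (24 probes) and adipose (23 probes); filled points passed an adjusted p under 0.05, open points did not. In liver, testosterone differences run from -1.79 (Serpina6) to 2.89 (Serpina4-ps1), while in adipose all 6 called for testosterone lie above 0.

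In liver, testosterone raised a few clade A serpins several-fold and lowered corticosteroid-binding globulin. Of 24 tested probes 13 were called (limma, Benjamini-Hochberg adjusted p under 0.05), 8 higher and 5 lower, where 19.1% of all tested probes were called, 8.17% higher and 10.9% lower. Serpina4-ps1 and Serpine2, both among the 8 higher, passed the detection filter only through hormone arrays. The median difference was 0.06 over the serpin probes and 0.00 over all tested probes. Serpina1e, Serpina3k, Serpina12 and Serpina4-ps1 rose more than 4-fold with background correction. Without it Serpina3k was at 1.59, Serpina12 at 1.54 and Serpina4-ps1 at 1.32 on the log2 scale, so these folds depend on that step. The 4 genes lie in one cluster of 28 annotated Serpina genes on chromosome 12, which also holds Serpina6, whose probe fell.

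Serpina1e, one of the alpha-1-antitrypsin copies, ran from 10.60 to 13.24 (median 11.84) in 20 blank arrays and from 14.07 to 14.82 (median 14.66) in 20 testosterone arrays. Every testosterone array lay above every blank array. Its difference was 2.66 ± 0.19 (SE) on the log2 scale, 6.33-fold (limma adjusted p = 1.2e-17). The genotype means under testosterone were 14.56 (XX), 14.62 (XY-), 14.56 (XXSry) and 14.57 (XY-Sry), with SDs of 0.09 to 0.29 (n = 5 each), whereas the blank group means ran from 11.56 to 12.24. Its raw signal reached 32432 with testosterone, close to the brightest on the arrays (25084 to 37472), and the part of the scanner's ceiling in the size of this difference and in the even genotype means was not tested. On the 3 slides that held both capsules the differences were 2.31, 3.04 and 2.44, with no overlap on any of them.

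The other Serpina1 copies moved little. Serpina1a rose by 0.32 ± 0.08 on one probe and 0.32 ± 0.11 on the other (adjusted p = 0.0051 and 0.026), and with median centring both probes lost the call (0.24 and 0.23, adjusted p = 0.33 and 0.44). The Serpina1b probes differed by -0.02 (95% interval -0.13 to 0.09) and -0.09 (-0.26 to 0.08), Serpina1c by 0.15 (-0.01 to 0.30) and Serpina1d by 0.06 (-0.06 to 0.18). None of these 4 probes passed the test. Their raw signals reached 30404 to 36020, also close to the brightest on the arrays, and the part of the scanner's ceiling in their small differences was not tested. The Serpina1 transcripts are close copies, so a probe may hold signal of more than 1 of them, which was not tested since probe sequences were not used here.

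**Figure D2:**
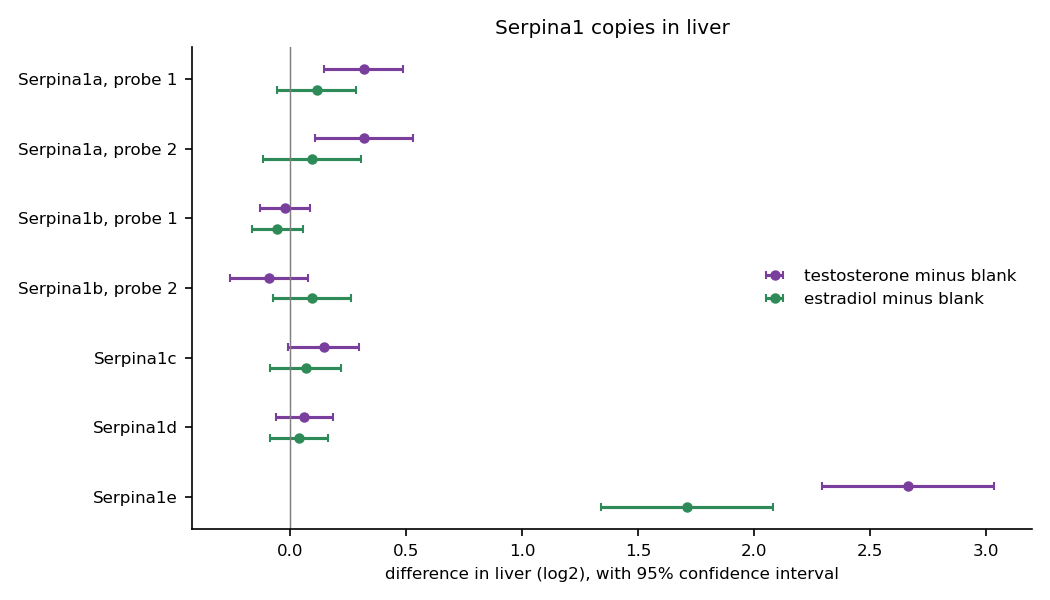
Testosterone minus blank and estradiol minus blank on the log2 scale for the 7 liver probes of Serpina1a, Serpina1b, Serpina1c, Serpina1d and Serpina1e; points are limma estimates and bars 95% intervals over 20 arrays per capsule. Serpina1e lies at 2.66 and 1.71, and no other probe above 0.32.

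The promoters of Serpina1e and of Serpina1b are shown because their probes differed in measured response while these letters differ little. Serpina1b, like Serpina1c and Serpina1d, did not pass the test. Each line gives the 250 bases before the gene's annotated start (RefSeq, GRCm38.p6), 5′ to 3′ on the gene's strand, at chr12:103956898-103957147 (minus strand) for Serpina1e and chr12:103738190-103738439 (minus strand) for Serpina1b, and capitals mark bases of the aligned block that differ from or are absent in the other gene.
Serpina1e: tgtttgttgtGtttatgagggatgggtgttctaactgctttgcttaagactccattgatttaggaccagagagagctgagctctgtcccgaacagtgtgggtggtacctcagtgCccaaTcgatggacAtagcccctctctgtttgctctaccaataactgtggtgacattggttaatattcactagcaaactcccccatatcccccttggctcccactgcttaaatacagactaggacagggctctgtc
Serpina1b: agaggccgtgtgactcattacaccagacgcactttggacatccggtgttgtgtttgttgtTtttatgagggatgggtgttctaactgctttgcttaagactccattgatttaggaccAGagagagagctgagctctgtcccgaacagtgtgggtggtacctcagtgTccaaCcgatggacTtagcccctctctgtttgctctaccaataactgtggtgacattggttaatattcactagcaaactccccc

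The aligned block spans 200 columns, of which 194 are identical (97.0%), 4 are mismatches and 2 are gaps. Its shared end lies 52 bases farther from the annotated start in Serpina1e than in Serpina1b. Against Serpina1a, Serpina1c and Serpina1d the Serpina1e window was identical at 95.8, 95.5 and 97.3% of the aligned columns. Promoters were found for 39 of 50 symbols, in 46 windows. On either strand, TGTTCT, an androgen and glucocorticoid receptor half-site, occurs in 14 of 46 serpin windows and in 16.1% of all 32851 windows of this length, and all 5 Serpina1 copies hold it. GTTAAT, an HNF1 half-site, occurs in 12 of 46 serpin windows and 6.43% of all windows, again in all 5 copies. Serpina7 is counted more than once among the GTTAAT windows. Because of this and the near-identical Serpina1 windows, the windows are not independent, and the shares were not tested against each other. In Serpina1e these matches begin 224 and 78 bases before the start, and in Serpina1b 174 and 26. These matches describe letters in a window, not bound sites.

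Serpina3k, an antichymotrypsin relative of the same cluster, ran from 5.38 to 7.99 (median 6.65) in blank arrays and from 8.11 to 9.76 (median 9.13) with testosterone. The groups did not overlap. Its difference was 2.45 ± 0.16 (5.47-fold, adjusted p = 2.4e-18), and 2.57, 2.55 and 2.98 within the 3 slides, again without overlap. Serpina12, which encodes vaspin, a secreted serpin first described in fat, ran from 5.34 to 9.06 (median 7.31) in blank arrays and from 6.46 to 10.93 (median 9.61) with testosterone. The groups overlapped, and the difference was 2.13 ± 0.29 (4.37-fold, adjusted p = 9.0e-08), or 1.89, 1.56 and 1.68 within slides. A second Serpina12 probe, detected in 7 of 60 arrays, gave 0.30 ± 0.13 and did not pass (adjusted p = 0.087), so the probes disagree.

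Serpina4-ps1, named as a pseudogene, was detected in 0 of 20 blank arrays, 8 of 20 estradiol arrays and 19 of 20 testosterone arrays. It thus passed the filter only through hormone arrays, where it is high, and it kept the testosterone call without the filter on dim probes. Blank arrays ran from 4.41 to 5.35 and testosterone arrays from 4.97 to 8.95 (median 7.93). Since no blank array measured it, only a bound can be given: it was at least 4.66-fold higher with testosterone, from the mean of the testosterone arrays over the lowest detectable signal of each blank array (fitted difference 2.89 ± 0.22, adjusted p = 5.6e-16). Only XY- T replicate 1, at 4.97, lay within the blank range, and the differences within slides were 1.80, 2.90 and 3.37.

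Serpina6, the carrier of glucocorticoids in plasma, fell. Blank arrays ran from 12.46 to 13.55 (median 13.21) and testosterone arrays from 10.36 to 11.94 (median 11.35), so that every testosterone array lay below every blank array. The difference was -1.79 ± 0.20 (3.46-fold lower, adjusted p = 1.8e-10), and -1.58, -1.62 and -1.98 within slides. Means of the 4 genotypes were 12.71 to 13.30 with blank capsules and 11.06 to 11.47 with testosterone.

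Among smaller changes, Serpinb1a fell from a median of 6.70 (range 4.75 to 8.57) to 5.98 (4.66 to 7.38), a difference of -1.08 ± 0.20 (adjusted p = 5.4e-05) with broad overlap. Without background correction that difference was -0.49 and still passed, and within the 3 slides it was -1.08, -1.55 and -0.88. Serpina11 rose by 0.59 ± 0.10 (adjusted p = 6.7e-06; blank 5.88 to 6.95, testosterone 5.79 to 7.70). Serpine2 (protease nexin-1, an inhibitor of thrombin and urokinase) rose by 0.55 ± 0.12 (adjusted p = 0.00051), near the detection limit. It was detected in 1 of 20 blank, 9 of 20 testosterone and 1 of 20 estradiol arrays. Serpine2 thus passed the filter only through testosterone arrays, where it is high, and it kept this call without the filter on dim probes. Serpina3m fell by 0.53 ± 0.12 on the log2 scale (adjusted p = 0.00056), Serpinb6a by 0.43 ± 0.08 (adjusted p = 0.00011) and Serpinf1, which encodes pigment epithelium-derived factor, by 0.25 ± 0.07 (adjusted p = 0.0062). Serpinf1 was at 14.41 ± 0.13 (SD, n = 20) with blank capsules and 14.16 ± 0.22 with testosterone, and with median centring its difference was -0.21 and not called (adjusted p = 0.10). Its raw signal reached 28147, within the range of the arrays' brightest signals (25084 to 37472), and the part of the scanner's ceiling was not tested. Within the 3 slides the differences were 0.34, 0.77 and 0.66 for Serpina11, 0.79, 0.36 and 0.74 for Serpine2, -0.58, -0.33 and -0.67 for Serpina3m, -0.43, -0.31 and -0.26 for Serpinb6a and -0.0033, -0.32 and -0.33 for Serpinf1.

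The remaining liver serpins did not pass for testosterone. These were Serpina10 (-0.05, interval -0.28 to 0.17), Serpina7 (-0.05, -0.53 to 0.44), Serpina3g (-0.17, -0.47 to 0.12), Serpina3n (0.27, -0.03 to 0.57), Serpinb6b (-0.12, -0.33 to 0.10) and Serping1, the C1 inhibitor of complement (0.06, -0.06 to 0.19), beside the Serpina1 probes above. The hepatocyte list had 0 of 12 probes called for testosterone, for estradiol or for Sry, with median differences of 0.03, 0.05 and -0.02 and a mean log2 level between 12.40 and 13.03 in all 60 arrays. The macrophage list had 4 of 10 probes lower with testosterone (median -0.31; mean level 6.80 blank, 6.50 testosterone) and the lymphocyte list 2 of 2 lower, with Ms4a1 detected in no liver array. In a limma fit with the hepatocyte, muscle, lymphocyte and epithelial list levels as covariates, Serpinb1a was at -0.89 (adjusted p = 0.031). Serpinb6a was at -0.20 in that fit and not called (adjusted p = 0.28). In liver the muscle list of that fit was 1 probe (4.35 to 5.62), the lymphocyte list 2 probes and the epithelial list 3. Both lymphocyte probes and 1 epithelial probe were themselves called for testosterone, so the fit cannot separate these list levels from testosterone. No fit held the macrophage list, and the part of each list in the fall of Serpinb1a and Serpinb6a was not tested on its own. In bulk tissue fewer cells of a type and less RNA per cell cannot be told apart.

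**Figure D3:**
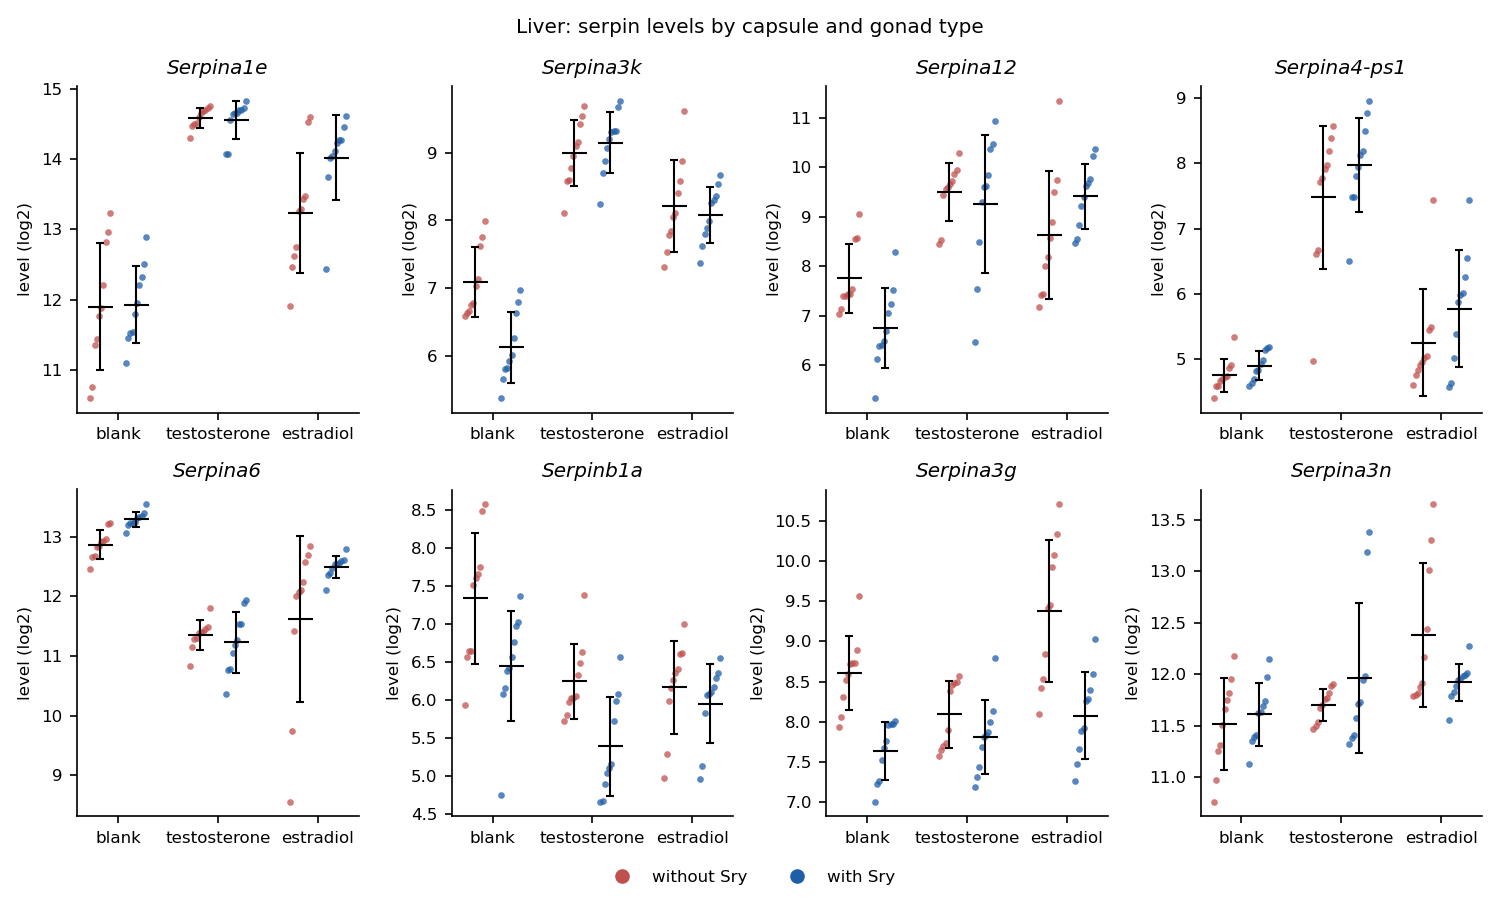
Log2 intensity of 8 liver serpins in every array (points) by capsule and by presence of Sry, with means and SD (bars, n = 10 arrays each). Serpina1e and Serpina3k stand higher and Serpina6 lower in all testosterone arrays than in any blank array, and the estradiol arrays of Serpina1e, Serpina3k and Serpina6 lie mostly in between.

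Estradiol, compared with the same 20 blank arrays, changed 9 of 24 liver serpin probes, 7 higher and 2 lower. Of all tested probes 6.8% were called, 3.54% higher and 3.25% lower, and the median difference was 0.10 over the serpin probes and -0.02 over all. With median centring in place of quantile normalisation the split was 4 higher and 2 lower, Serpina11, Serpina3g and Serpina3n losing their calls. Serpina12, Serpina1e and Serpina3k rose about 3-fold and Serpina6 fell 2.03-fold.

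Serpina1e ran from 11.91 to 14.62 (median 13.88) with estradiol, overlapping the blank range of 10.60 to 13.24, and rose by 1.71 ± 0.19 (3.28-fold, adjusted p = 3.2e-09). Serpina3k ran from 7.32 to 9.61 (median 8.09) and rose by 1.53 ± 0.16 (2.89-fold, adjusted p = 3.2e-09). Serpina12 ran from 7.17 to 11.34 (median 9.05) and rose by 1.76 ± 0.29 (3.39-fold, adjusted p = 3.7e-05). Each of these 3 overlapped the blank arrays. The second Serpina12 probe, detected in 4 of 20 estradiol arrays, gave 0.33 and did not pass (adjusted p = 0.11), so the probes disagree here too. Within the 2 slides that held both capsules the differences were 1.48 and 1.30 for Serpina1e, 1.91 and 0.71 for Serpina3k and 1.32 and 1.47 for Serpina12. Beside the testosterone values of 2.66, 2.45 and 2.13, which share the blank arrays, the estradiol values were lower for each gene, and the difference between the hormones was not tested.

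Serpina6 fell by 1.02 ± 0.20 on the log2 scale with estradiol (adjusted p = 0.00033), and differed by -1.61 and -0.59 within the 2 slides. The 20 estradiol arrays ran from 8.56 to 12.85 with a median of 12.44, against a blank range of 12.46 to 13.55. Array XX E replicate 1 at 8.56 and array XY- E replicate 2 at 9.74 lay far below the others, of which the lowest was 11.43. Without these 2 arrays, a choice made after seeing the data, the difference was -0.71 (adjusted p = 3.4e-06). The mean with estradiol was 12.50 ± 0.18 (SD, n = 10) with Sry and 11.63 ± 1.39 (n = 10) without.

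Serpina11 rose by 0.54 ± 0.10 with estradiol (adjusted p = 0.00015), and by 0.58 and 0.62 within the 2 slides. With median centring it was at 0.34 and not called (adjusted p = 0.14). Serpina4-ps1 rose by a fitted 0.69 ± 0.22 (adjusted p = 0.046), at least 1.01-fold, and was no longer called in 6 of 9 alternative settings, where it ran from 0.20 (slide as a block) to 0.72. The call was also lost on leaving out any of 27 single arrays (adjusted p up to 0.086). XY- E replicate 5, whose label is in doubt, was at 7.44, and without both doubtful liver arrays the difference was 0.56 (adjusted p = 0.082). Within the 2 slides Serpina4-ps1 differed by 0.37 and 0.10. Serpina7 was 0.59 lower (difference -0.59, interval -1.07 to -0.10) and did not pass (adjusted p = 0.14).

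The remaining estradiol calls were Serpina3n, Serpina3g and Serpinb1a. Serpina3n, an acute-phase protein, ran from 11.55 to 13.65 (median 11.95) with estradiol and from 10.76 to 12.17 (median 11.63) with blank capsules, and rose by 0.59 ± 0.15 (adjusted p = 0.0082). Serpina3g, found in activated lymphocytes and macrophages, ran from 7.27 to 10.70 (median 8.48) against 7.01 to 9.56 (median 7.99) and rose by 0.61 ± 0.15 (adjusted p = 0.0056). Serpinb1a fell by 0.83 ± 0.20 on the log2 scale (adjusted p = 0.0049; estradiol 4.95 to 6.99). All 3 overlapped the blank arrays, and within the 2 slides they differed by 1.12 and 0.25 (Serpina3n), 1.43 and 0.22 (Serpina3g) and -0.05 and -1.02 (Serpinb1a). With median centring Serpina3n and Serpina3g were each at 0.39 (adjusted p = 0.155 and 0.157), where the median of all tested probes was -0.18, so that both stood 0.57 above it.

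The neutrophil list had 5 of 7 probes higher with estradiol (median 0.89), with a mean log2 level of 4.83 to 7.09 in blank, 4.85 to 5.41 in testosterone and 5.08 to 8.89 in estradiol arrays. XY- E replicate 2 held the highest neutrophil level (8.89) and the highest Serpina3n (13.65). XX E replicate 1 was second in both among the estradiol arrays, at 8.23 and 13.31, and these were also the arrays lowest in Serpina6. The macrophage list had 8 of 10 probes higher with estradiol (median 0.56; mean level 6.80 blank, 7.33 estradiol). No neutrophil or macrophage gene of these lists was undetected in liver, and their part in the Serpina3n, Serpina3g and Serpina6 results was not tested. Without those 2 arrays Serpina3n was at 0.45 (adjusted p = 0.032).

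Presence of Sry, and so the gonad type before surgery, changed 3 of 24 liver serpin probes, 1 higher and 2 lower. Of all tested probes 3.39% were called, 0.539% higher and 2.85% lower, and the median difference was 0.02 over the serpin probes and 0.01 over all. Serpina3g was lower with Sry: 30 arrays with Sry ran from 7.01 to 9.03 (median 7.86) and 30 without from 7.58 to 10.70 (median 8.53), a difference of -0.85 ± 0.12 (adjusted p = 7.2e-07). The ranges overlapped. By capsule its differences were -0.97 (blank, adjusted p = 0.0033), -0.29 (testosterone, not called) and -1.30 (estradiol, adjusted p = 2.8e-05).

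Serpinb1a was also lower with Sry, by 0.65 on the log2 scale (difference -0.65 ± 0.16, adjusted p = 0.0084). Its means were 6.44 with and 7.33 without Sry in blank arrays, 5.38 and 6.24 with testosterone, and 5.95 and 6.16 with estradiol. Serpine2 was 0.34 ± 0.10 higher with Sry (adjusted p = 0.032), and lost its call with an offset of 50 (0.18), without the filter on dim probes, without the 2 arrays lowest in Serpina6 (0.31) and on leaving out any of 7 single arrays (XXSry B replicate 1, XX T replicates 2 and 4, XY- T replicate 3, XXSry T replicates 1 and 2, XXSry E replicate 2), where it was 0.31 to 0.33. Serpine2 was detected in 8 arrays with Sry and 3 without, so only the arrays with Sry met the filter of 5 arrays. The macrophage list had 8 of 10 probes lower with Sry (median -0.59, mean level 6.62 with and 7.14 without). The neutrophil list had 4 of 7 probes lower (median -0.45) and the lymphocyte list 2 of 2. In the limma fit with the hepatocyte, muscle, lymphocyte and epithelial list levels as covariates, Serpina3g was at -0.70 (adjusted p = 0.061). Serpinb1a was at -0.56 (adjusted p = 0.32) and Serpine2 at 0.41 (adjusted p = 0.21) in it. Serpina3k (-0.78) and Serpina6 (0.92) were called for Sry in that fit. In the main fit they were at -0.31 and 0.39 and not called (limma adjusted p = 0.27 and 0.24). The muscle list of the covariate fit was 1 probe and its lymphocyte list the 2 probes called lower with Sry. List levels and Sry therefore cannot be told apart in it. No fit held the macrophage or neutrophil list, and the part of each list in the Serpina3g and Serpinb1a differences was not tested on its own.

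In blank arrays Serpina3k was lower with Sry, at 6.13 ± 0.52 against 7.10 ± 0.51 (SD, n = 10 each), a difference of -0.97 (adjusted p = 0.011). With testosterone the means were 9.14 and 8.99 and with estradiol 8.08 and 8.21, neither called. Of the 24 probes, 2 were called for Sry in blank arrays (1.78% of all tested probes), 0 in testosterone arrays (0.212%; 3 at an unadjusted p under 0.05 in limma) and 1 in estradiol arrays (2.47%).

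Hormone effects by gonad type were set side by side and the difference was tested. Testosterone called 10 of 24 serpin probes with Sry (9.19% of all tested probes) and 10 without (7.06%), and estradiol 4 with Sry (1.75%) and 7 without (2.58%). For Serpina1e the testosterone values were 2.63 with and 2.69 without Sry, and for Serpina6 -2.06 and -1.52. The interaction of testosterone with Sry called 0 of 24 serpin probes by limma (15 of all tested probes, 0.133%), 2 of them at an unadjusted p under 0.05. The interaction of estradiol with Sry called 0 of 24 (9 of all, 0.0795%), 3 of them at an unadjusted p under 0.05.

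The largest of these interaction estimates among the serpin probes were those of Serpina3k for testosterone and Serpina12 for estradiol. Serpina3k rose by 3.01 with Sry and 1.89 without, an interaction of 1.12 ± 0.33 (adjusted p = 0.33). Serpina12 rose by 2.66 with estradiol in arrays with Sry and was 0.87 higher without (adjusted p = 0.29), an interaction of 1.79 ± 0.58 (adjusted p = 0.34). Neither difference between gonad types passed the test. For the sex chromosome complement limma called 0 of 24 serpin probes in liver (1 at an unadjusted p under 0.05; 0.186% of all probes called) and 0 of 23 in adipose (2; 0.137%).

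In inguinal fat testosterone raised 6 of 23 serpin probes and lowered 0, where 4.77% of all tested probes were called, 2.17% higher and 2.6% lower. The median difference was 0.40 over the serpin probes and -0.02 over all. The 23 probes include the Serpina1 copies, none called, and the hepatocyte list had a median of 0.57 with 0 of 10 probes called. The part of hepatocyte transcripts in the serpin median was not tested. Of the 6 called genes, 3 were of the Serpina3 group (Serpina3n, Serpina3m and Serpina3c), and the others were Serpine2, Serpinb6a and Serping1. As with the Serpina1 copies, a Serpina3 or Serpinb6 probe may hold signal of other copies, which was not tested.

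**Figure D4:**
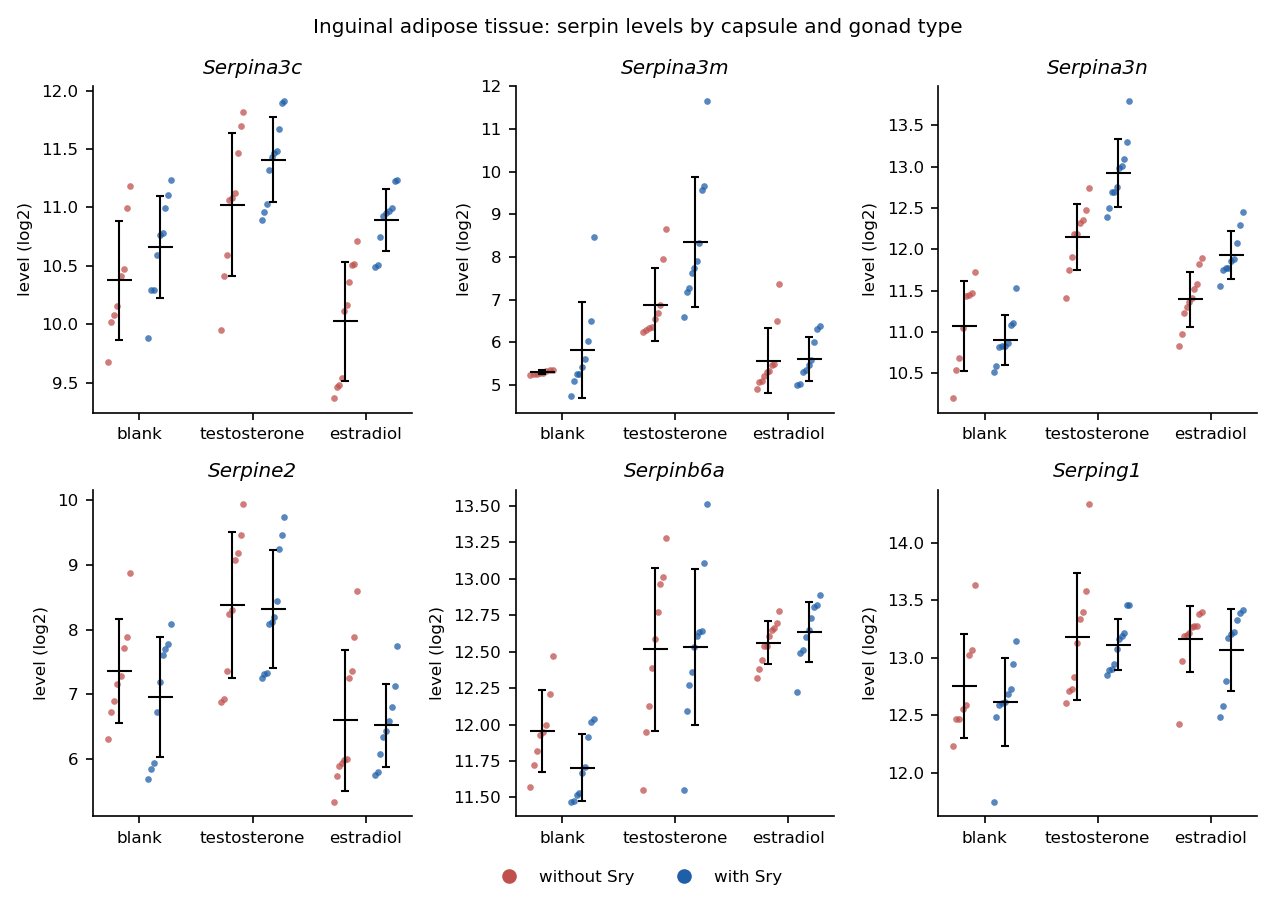
Log2 intensity of the 6 adipose serpins called for testosterone in every array (points) by capsule and by presence of Sry, with means and SD (bars). Serpina3n is higher with testosterone and, by less, with estradiol; Serpinb6a and Serping1 rise with both hormones and Serpina3c, Serpina3m and Serpine2 with testosterone alone among those called.

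Serpina3n, a secreted inhibitor of leukocyte proteases, ran from 10.20 to 11.73 (median 10.86) in 17 blank arrays and from 11.41 to 13.79 (median 12.50) in 19 testosterone arrays. The ranges overlapped slightly. The difference was 1.51 ± 0.13 (2.86-fold, adjusted p = 6.1e-12). The 4 genotype means with blank capsules were 11.41 (XX), 10.87 (XY-), 10.86 (XXSry) and 10.97 (XY-Sry), and with testosterone 12.26, 12.06, 12.96 and 12.88 in the same order. Within the 2 slides that held both capsules the differences were 1.16 and 1.76. In liver the same probe differed by 0.27 with testosterone and did not pass (adjusted p = 0.21).

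Serpina3c, its close relative, ran from 9.68 to 11.23 (median 10.47) in blank and from 9.95 to 11.91 (median 11.32) in testosterone arrays. The difference was 0.74 ± 0.15 (1.67-fold, adjusted p = 0.00097), with overlap, and -0.12 and 1.54 within the 2 slides. Their promoters are shown because these relatives were both raised in fat, while Serpina3n was detected in every array of both tissues and Serpina3c only in those of fat. The windows are the 250 bases before the annotated start (RefSeq, GRCm38.p6), 5′ to 3′ on the gene's strand, at chr12:104406458-104406707 (plus strand) for Serpina3n and chr12:104153873-104154122 (minus strand) for Serpina3c, with capitals where the aligned bases differ.
Serpina3n: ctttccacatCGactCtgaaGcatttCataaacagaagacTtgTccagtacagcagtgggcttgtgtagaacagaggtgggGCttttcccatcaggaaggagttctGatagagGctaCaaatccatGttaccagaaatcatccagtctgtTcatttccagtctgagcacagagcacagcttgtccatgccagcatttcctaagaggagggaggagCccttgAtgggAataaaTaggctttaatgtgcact
Serpina3c: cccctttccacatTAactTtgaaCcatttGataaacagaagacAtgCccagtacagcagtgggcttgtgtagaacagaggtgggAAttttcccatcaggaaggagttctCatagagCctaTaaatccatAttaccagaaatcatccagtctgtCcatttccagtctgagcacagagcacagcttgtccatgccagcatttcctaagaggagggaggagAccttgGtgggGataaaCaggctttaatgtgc

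Over 247 aligned columns 229 bases were identical (92.7%) and 18 differed, with no gap. Both windows hold TGTTCT on the minus strand, beginning 183 bases before the start in Serpina3n and 180 in Serpina3c. The STAT5 and BCL6 type motif TTCNNNGAA, searched on both strands occurs in 6 of 46 serpin windows and 7.02% of all windows. Serpina11, Serpina3g and Serpinb6a are among the tested genes that hold TTCNNNGAA, and Serpina11 is counted more than once among those windows.

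Serpina3m was detected in 2 of 17 blank arrays, 17 of 19 testosterone arrays and 4 of 19 estradiol arrays. Blank arrays ran from 4.75 to 8.48 (median 5.30) and testosterone arrays from 6.25 to 11.66 (median 7.28), with overlap through the blank arrays XXSry B replicate 1 (8.48) and XY-Sry B replicate 2 (6.49). The difference was 2.08 ± 0.32 (adjusted p = 2.5e-05). It was 0.14 and 1.89 within the 2 slides, 1.58 with slide as a block and 1.02 without background correction, each of the latter still called. In liver, where Serpina3m was detected in all arrays, it fell by 0.53 with testosterone.

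Serpina3m is a liver gene as well, and hepatocyte transcripts varied in these fat arrays. The hepatocyte list ran from 5.14 to 11.00 in blank, 5.47 to 13.68 in testosterone and 5.24 to 9.27 in estradiol arrays (mean log2 level), with 0 of its 10 tested probes called for any of the contrasts. Array XY-Sry T replicate 1 was highest in both the list (13.68) and Serpina3m (11.66). Without the 3 arrays highest in hepatocyte transcripts, a choice made after seeing the data, Serpina3m differed by 1.92 (adjusted p = 6.4e-07). With the hepatocyte, muscle, lymphocyte and epithelial list levels as covariates it differed by 1.78 (adjusted p = 1.2e-06).

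Serpine2 ran from 5.70 to 8.87 (median 7.20) in blank and from 6.88 to 9.93 (median 8.23) in testosterone arrays, a difference of 1.27 ± 0.31 (2.41-fold, adjusted p = 0.0082) with broad overlap. Within slides it was 0.80 and 1.43, and with slide as a block 1.13 and no longer called (adjusted p = 0.11). Serpinb6a, an inhibitor inside cells, ran from 11.47 to 12.47 (median 11.82) in blank and from 11.55 to 13.51 (median 12.59) in testosterone arrays and rose by 0.70 ± 0.13 (adjusted p = 0.00036), or 0.88 and 0.80 within slides. Serping1, which blocks the C1 protease of complement, rose by 0.49 ± 0.13 (adjusted p = 0.020; blank 11.75 to 13.63, testosterone 12.61 to 14.33). Serping1 lost this call with slide as a block (0.51), with median centring (0.46), when only the compared groups were fitted (adjusted p = 0.055) and without XX B replicate 1 (0.44, adjusted p = 0.057). Within slides it was 0.05 and 1.10.

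Estradiol called 3 of 23 adipose serpin probes, all higher, where 20.5% of all tested probes were called, 10.4% higher and 10.1% lower. The median difference was -0.04 over the serpin probes and -0.02 over all. Serpinb6a ran from 12.22 to 12.89 (median 12.61) with estradiol against 11.47 to 12.47 with blank capsules, an overlap that rests on XY- B replicate 3 at 12.47. The difference was 0.78 ± 0.13 (1.71-fold, adjusted p = 9.2e-06), and 0.58 and 0.94 within the 2 slides without overlap. Serpina3n ran from 10.83 to 12.45 (median 11.75) and rose by 0.64 ± 0.13 (adjusted p = 0.00022), and Serping1 from 12.42 to 13.42 (median 13.21), by 0.45 ± 0.13 (adjusted p = 0.010). Within slides Serpina3n differed by 0.27 and 0.58 and Serping1 by 0.12 and 0.47. With median centring Serping1 was at 0.38 and not called.

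Serpina3c (-0.02, interval -0.31 to 0.27) and Serpina3m (0.04, -0.61 to 0.69) did not pass for estradiol, nor did Serpine2 (-0.51, -1.13 to 0.10) or Serpinh1 (0.30, -0.10 to 0.71). The macrophage list had 10 of 10 probes higher with estradiol (median 1.11; mean level 7.39 to 9.67 in blank, 8.64 to 10.36 in estradiol arrays) and the fibroblast list 5 of 7 (median 0.68). The adipocyte list had 3 of 7 probes lower (median -0.30) and the epithelial list 2 of 6 higher (median 0.54). With the hepatocyte, muscle, lymphocyte and epithelial list levels as covariates, Serpinb6a was at 0.82, Serpina3n at 0.52 and Serping1 at 0.42, each still called. No fit held the macrophage, fibroblast or adipocyte list. The part of each list in the rise of Serpinb6a, Serpina3n and Serping1 was not tested on its own. With testosterone the macrophage list had 1 of 10 probes higher (median 0.34).

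Sry changed 2 of 23 adipose serpin probes, both higher, where 7.36% of all tested probes were called, 2.64% higher and 4.72% lower. The median difference was 0.23 over the serpin probes and 0.03 over all. The hepatocyte list had a median of 0.50 with 0 of 10 probes called, and its part in the serpin median was not tested. Serpina3c ran from 9.89 to 11.91 (median 10.98) in 28 arrays with Sry and from 9.37 to 11.81 (median 10.42) in 27 without, a difference of 0.52 ± 0.12 (adjusted p = 0.0019) with broad overlap. By capsule the difference was 0.30 in blank and 0.36 in testosterone arrays, neither called, and 0.89 in estradiol arrays (adjusted p = 0.0021), with means of 10.89 ± 0.27 with Sry and 10.02 ± 0.51 without.

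Serpina3n was 0.36 ± 0.11 higher with Sry (adjusted p = 0.023). Blank means were 10.91 ± 0.30 with Sry and 11.07 ± 0.54 without, testosterone means 12.92 ± 0.41 and 12.15 ± 0.40, and estradiol means 11.93 ± 0.29 and 11.39 ± 0.34. The difference by Sry was -0.22 in blank arrays, 0.76 in testosterone arrays (adjusted p = 0.0046) and 0.54 in estradiol arrays (adjusted p = 0.076). Of the 23 probes, 0 were called for Sry in blank arrays (1.81% of all tested probes; 0 at an unadjusted p under 0.05 in limma), 1 in testosterone arrays (3.43%) and 1 in estradiol arrays (4.39%). Without XX B replicate 3 the pooled Serpina3n difference was 0.33 and just missed (adjusted p = 0.054).

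The epithelial list, which in inguinal fat includes mammary epithelium, had 6 of 6 tested probes lower with Sry (median -3.44). Its mean level was 5.28 to 8.43 in arrays with Sry and 7.94 to 10.70 without, and Wap was detected in no array. With the 4 list levels as covariates no adipose probe was called for Sry, Serpina3c was at 0.07 and Serpina3n at 0.56. The list's ranges with and without Sry met only between 7.94 and 8.43, so the parts of Sry and of epithelial content in the Serpina3c and Serpina3n differences cannot be told apart.

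By gonad type, testosterone called 5 of 23 adipose serpin probes with Sry (3.55% of all tested probes) and 1 without (0.444%), and estradiol 2 (10.2%) and 1 (10.3%). Serpina3n rose with testosterone by 2.01 with Sry and 1.02 without, and with estradiol by 1.02 with Sry, against 0.26 without (not called). The interaction was 0.99 ± 0.26 for testosterone (adjusted p = 0.48) and 0.77 ± 0.26 for estradiol (adjusted p = 0.26), so neither difference passed. By limma the testosterone interaction called 0 of 23 serpin probes (0.00683% of all; 2 at an unadjusted p under 0.05) and the estradiol interaction 0 of 23 (0.834% of all; 4 at an unadjusted p under 0.05).

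Several serpins of fat varied widely among arrays and were not called for a hormone or Sry. Serpina1b ran from 6.62 to 12.70 in blank, 5.87 to 14.71 in testosterone and 5.14 to 11.15 in estradiol arrays, and was highest in XY-Sry T replicate 1, the array highest in hepatocyte transcripts. Serpina3g ran from 6.25 to 11.62 in blank, 5.39 to 11.45 in testosterone and 6.36 to 11.65 in estradiol arrays. The lymphocyte list ran from 4.96 to 10.90 over the 55 arrays, with 0 of 11 probes called for testosterone, estradiol or Sry. With the 4 list levels as covariates the residual SD of Serpina1c fell to 19.6%, that of Serpina1d to 27.5%, that of Serpinb1a to 31.4% and that of Serpina3g to 31.5% of its value without them, against a median of 91.8% over all tested probes. Among the serpins called for testosterone it was 52.9% for Serpine2, 71.6% for Serpina3m, 76.3% for Serpina3c and 80.6% for Serpinb6a. For Serpina3n it was 95.2% and for Serping1 98.3%.

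**Figure D5:**
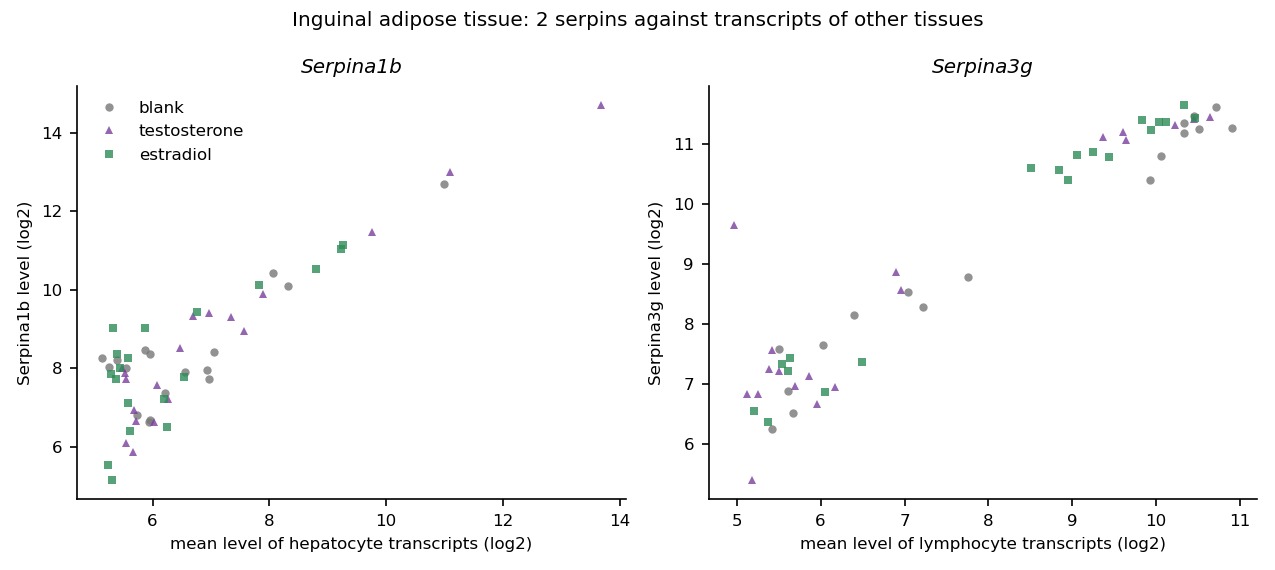
Each point is 1 of the 55 adipose arrays; the x axis is the mean log2 level of the hepatocyte list (left) or the lymphocyte list (right) and the y axis the log2 intensity of Serpina1b or Serpina3g. Serpina1b is highest, at 14.71, where the hepatocyte list is highest, at 13.68.

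Proteases, cargo enzymes and receptors tied to these serpins were counted from a list of 35 genes, 34 of them on the array. In liver 31 probes of 22 genes were tested: testosterone called 3 higher and 8 lower (8.17% and 10.9% of all tested probes), estradiol 5 higher and 1 lower (3.54% and 3.25%), and Sry 0 higher and 3 lower (0.539% and 2.85%). The list's median differences were -0.03, 0.05 and -0.02 in that order. Hsd11b1, which regenerates glucocorticoid from its inactive form, fell on all 3 of its probes with testosterone (by 0.25, 0.43 and 0.24 on the log2 scale), beside the fall of Serpina6. Dio1, the deiodinase of thyroid hormone, rose on both probes with testosterone (0.62 and 0.78) and estradiol (1.02 and 0.96) and was lower with Sry (-0.69 and -0.58). Prtn3, the neutrophil protease that alpha-1-antitrypsin inhibits, rose by 1.97 with estradiol, and Elane, neutrophil elastase, by 0.53.

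In adipose 34 probes of 25 genes of that list were tested: testosterone called 4 higher and 0 lower (2.17% and 2.6% of all tested probes), estradiol 10 higher and 4 lower (10.4% and 10.1%), and Sry 2 higher and 3 lower (2.64% and 4.72%). Its median differences were 0.19, 0.15 and 0.10 in that order, against -0.02, -0.02 and 0.03 over all tested probes. Prtn3 rose by 2.20 with testosterone and by 3.22 with estradiol, both against the same blank arrays. The neutrophil list had 0 of 7 probes called in adipose for either hormone (median 0.11 with testosterone, 0.15 with estradiol). Hsd11b1 rose on its 3 probes with testosterone (0.68, 0.60 and 0.71) and fell on them with estradiol (by 1.47, 1.52 and 1.48 on the log2 scale). C1s1, a protease that Serping1 inhibits, rose on both probes with estradiol (0.83 and 0.73), and the mast cell chymase Cma1 also did (0.82 and 0.67). The epithelial proteases St14 and Tmprss2 were lower with Sry (St14 -0.83 and -1.78, Tmprss2 -4.19), as the epithelial list was.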

How the data were processed

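RNA of liver (60 arrays) and inguinal adipose tissue (55 arrays) was measured on Illumina 1-colour arrays. Per the file headers, the deposited values are the mean bead signal of a probe (a linear intensity) and, per array, its detection p-value. The array medians differ and no value is near 0, so the intensities were taken as neither background-subtracted nor normalised. The submitters' processing notes name lumi, with no version or role. The 115 columns of bead standard errors (60 liver, 55 adipose) were not used. Probe design and scanner settings are not given in the sources used here.

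Each tissue was processed alone in limma 3.58.1 under R 4.3.3: normexp background with negative controls inferred from detection p-values, 16 added, quantile normalisation, log2. A probe was tested if detected (p under 0.01) in at least 5 liver or 3 adipose arrays. A model with 1 mean per group gave contrasts that weight genotypes equally, with Benjamini-Hochberg adjustment over all tested probes and a threshold of 0.05. The script was tested on simulated data. Arm means are over arrays, so in adipose they can depart slightly from the contrasts.

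Arrays were grouped by genotype, capsule and tissue from their labels, and replicate numbers only name an array. For each contrast the called members with the largest differences, up to 8 and 1 probe per gene, were given with group values, and other called members with the difference. The members, gene lists and tests were chosen with earlier results of these data known. A probe dim on all arrays of a group gives a bound only. Promoters were aligned with Biopython 1.88. Alternatives were no background correction, median centring, an offset of 50, no filter, slide as a block, array weights, only the compared groups, list covariates, doubtful arrays left out, and each array left out in turn.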

Additional observations from a re-analysis of the deposited data

Results flagged for a closer look

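In 186 groups of 4 or 5 arrays over the named serpins, 10 held an array far from the rest of its group, and chance alone gives about 5% of groups. In adipose, Serpina3m was at 6.39 in XXSry E replicate 1 (others 5.30 to 5.47), at 7.36 in XY- E replicate 3 (others 5.08 to 5.30) and at 7.96 in XY- T replicate 4 (others 6.25 to 6.70). Adipose Serping1 was at 11.75 in XY-Sry B replicate 2 (others 12.62 to 12.73). In liver, Serpina1e was at 14.07 in XXSry T replicate 4 (others 14.66 to 14.70) and at 12.43 in XY-Sry E replicate 1 (others 13.75 to 14.23). Liver Serpina3n was at 13.65 in XY- E replicate 2 (others 11.79 to 11.92), and liver Serpina6 was at 8.56 in XX E replicate 1 (others 12.00 to 12.69). Liver Serpine2 was at 5.89 in XXSry B replicate 1 (others 4.69 to 4.94) and at 5.87 in XY- T replicate 1 (others 4.59 to 4.92).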

How the results depend on the processing

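Of 93 counts of called serpin probes under the alternatives, 91 stayed within 1.5 times the reported count. These include the counts of both interactions, which were reported as 0 and stayed 0 in every alternative. The liver count for Sry was 5 (2 higher, 3 lower) in place of 3 with slide as a block. The adipose count for Sry was 0 in place of 2 with the marker list levels as covariates, where limma called 0 of all tested probes and 2 serpin and 1102 of all probes had an unadjusted p under 0.05. With the same covariates Serpina3c by Sry in testosterone arrays turned from 0.36 to -0.10 and Serpina3n by Sry in blank arrays from -0.22 to 0.0094. The cause was not tested. Of 870 values of named serpins under the alternatives, 815 kept direction and side of the threshold, 38 lost their call, 15 gained one and 2 changed sign. With median centring the liver counts were 10 (6 higher, 4 lower) for testosterone and 6 for estradiol.

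Leaving out single arrays gave 12 to 14 called serpin probes for testosterone, 8 to 9 for estradiol and 2 to 4 for Sry in liver. In adipose it gave 5 to 6, 3 to 3 and 1 to 2, the 1 without XX B replicate 3, and 0 for both interactions in either tissue. No paired analysis was possible because the labels give no replicate numbers, and slide as a block is given above.

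Dim probes limit the folds: without background correction Serpina4-ps1 with testosterone was at 1.32 (2.89 reported) and adipose Serpina3m at 1.02 (2.08 reported). The Serpina1b, Serpina1c, Serpina1d, Serpina1e and Serpinf1 signals of liver lie near the brightest of the arrays. The number of arrays limits the precision.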
